A study of Homo sapiens with 4 samples.

Results

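Autophagy machinery was read as 42 of the 19739 coding genes of the expression table. The genes were taken by symbol: all ATG genes with a number, the MAP1LC3, GABARAP, ULK and WIPI families, and 11 named partners and cargo receptors. The samples were cell lines that the labels give as human liver cancer. Cells labelled HepG2 and Huh7 cells were given RSL3@O2-ICG NBS plus low-frequency ultrasound over 24 h and set against untreated cells of the same label. What NBS stands for is not stated in the labels. Each of the 4 groups was 1 RNA sequencing library, so no value within a line has an SD or a p, and the 2 lines are the only repeats. All 4 groups were grown in the same serum-containing medium, and no library analysed here came from cells given RSL3, the carrier or ultrasound alone. RSL3 inhibits GPX4, the enzyme that reduces lipid hydroperoxides.

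In autophagy a cell wraps cytoplasm in a double membrane, the autophagosome, and delivers it to lysosomes. A kinase complex around ULK1 starts the process, a lipid kinase complex around PIK3C3 and BECN1 marks the membrane with the lipid PI3P, and WIPI proteins read that mark. ATG9A and ATG2 proteins supply lipid, a conjugation system attaches LC3 and GABARAP proteins (the ATG8 family) to the membrane, and receptors such as SQSTM1, also known as p62, tie cargo to them. In liver cells autophagy also clears ferritin and damaged organelles, and SQSTM1 is itself degraded with its cargo. Transcript level says nothing of how fast autophagosomes are made or consumed, and neither protein nor flux was measured.

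Levels are FPKM, fragments per kilobase of transcript and per 1000000 fragments, a scale on which genes can be compared with each other. Inferred depth ran between 22900000 and 26400000 fragments, and the libraries held between 11156 and 11715 coding genes at 1 FPKM or more. The libraries labelled HepG2 did not carry the transcripts that define hepatocytes. All 14 hepatocyte markers, among them ALB and APOB, stood under 1 FPKM in both (8 at 0 in treated and 10 at 0 in untreated cells), with a summed level of 0.468 FPKM treated and 0.599 FPKM untreated. In Huh7 none of the 14 was under 1 FPKM, and the sum was 1524 FPKM treated and 2018 FPKM untreated. The HepG2 name is therefore used as a label, and each Huh7 result is the value without those libraries. The 7 fibroblast and stellate markers summed to 9.50 FPKM in treated and 8.87 FPKM in untreated HepG2-labelled cells, and to 10.3 FPKM in treated and 38.0 FPKM in untreated Huh7. In untreated Huh7 LUM alone stood at 31.7 FPKM, and 5 of the 7 were under 1 FPKM. Of the 4 tested under the HepG2 label, ACTA2 and COL1A1 were higher in treated cells and PDGFRB and DCN lower. The 7 blood cell markers summed to 1.05 FPKM in treated and 0.399 FPKM in untreated HepG2-labelled cells, and to 4.08 FPKM in treated and 19.4 FPKM in untreated Huh7. In untreated Huh7 CD14 stood at 15.1 FPKM and LYZ at 4.11 FPKM, and 5 of the 7 were under 1 FPKM. PTPRC and CD3E were at 0 in all libraries. The 5 endothelial markers summed to 1.15 FPKM treated and 0.112 FPKM untreated under the HepG2 label, and to 0.193 FPKM treated and 0.478 FPKM untreated in Huh7. Few genes make up these sums, so they do not show that fibroblast, blood or endothelial cells were present. The part of these markers in the ratios given here was not tested, and in bulk RNA fewer cells of a type and less RNA per cell cannot be told apart.

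The ratio given for each gene is log2((treated FPKM + 1)/(untreated FPKM + 1)), which understates the change of low genes. A gene was tested in a line when it reached 1 FPKM in at least 1 of that line's 2 libraries. Of the 42 members 40 qualified in each line. ATG9B, a paralog of the lipid scramblase ATG9A, stood at 0.294 FPKM treated and 0 untreated under the HepG2 label and at 0.161 FPKM treated and 0.0519 FPKM untreated in Huh7, and MAP1LC3C was listed at 0 in all of them. The members were mostly above their untreated level in both lines, by less than 2-fold. In HepG2-labelled cells 34 of 40 had a ratio above 1, against 56.9% of all 11843 genes tested. The median log2 ratio was 0.36 for the members and 0.09 for all genes. In Huh7 32 of 40 had a ratio above 1, against 58.8% of 11945 genes, with a median of 0.33 for the members and 0.10 for all genes. With size factors in place of the deposited scale the medians of all genes moved to -0.02 in HepG2-labelled cells and -0.03 in Huh7, and the members then stood 0.27 and 0.23 above these. On the deposited scale the members stood 0.28 and 0.23 above.

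At the 2-fold mark, 2 members were higher in treated HepG2-labelled cells, ATG2A and WIPI1, and none was lower, where 6.7% of all genes passed the mark upward and 2.43% downward. In Huh7 3 were higher, RB1CC1, TAX1BP1 and ATG4C, and none was lower, where the background was 3.88% higher and 2.19% lower. At 1.5-fold 9 of 40 members were higher in HepG2-labelled cells (19.2% of all genes) and 8 of 40 in Huh7 (15.4%). No member was 1.5-fold lower in either line, where 8.76% of all genes were lower in HepG2-labelled cells and 7.63% in Huh7. The counts of higher members lie near the background shares, while no member was among the lower genes on this ratio. The lowest ratio of a member in Huh7 was -0.44, of the low gene MAP1LC3B2. Without the added 1 FPKM its ratio there was 0.59-fold, with a counting interval of 0.30 to 1.12. In Huh7 the calls of TAX1BP1 and ATG4C ended with size factors, which left RB1CC1 as the 1 member past 2-fold.

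Start-site sequences of the members past 2-fold that the RefSeq promoter table holds, and of SQSTM1 and MAP1LC3B, the receptor and the LC3 gene with the largest levels, are shown as the 250 bases before the RefSeq start, 5′ to 3′ on the gene's strand (GRCh38.p14). The windows are ATG2A at chr11:64917210-64917459 (minus strand), WIPI1 at chr17:68457497-68457746 (minus strand), ATG4C at chr1:62783882-62784131 (plus strand), TAX1BP1 at chr7:27739912-27740161 (plus strand), SQSTM1 at chr5:179820655-179820904 (plus strand) and MAP1LC3B at chr16:87392086-87392335 (plus strand). Capitals mark a match to a searched motif.
ATG2A: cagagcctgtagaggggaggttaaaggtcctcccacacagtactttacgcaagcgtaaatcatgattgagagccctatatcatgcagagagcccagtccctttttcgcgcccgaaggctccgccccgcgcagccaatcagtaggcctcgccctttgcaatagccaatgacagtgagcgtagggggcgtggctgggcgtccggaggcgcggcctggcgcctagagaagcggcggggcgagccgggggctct
WIPI1: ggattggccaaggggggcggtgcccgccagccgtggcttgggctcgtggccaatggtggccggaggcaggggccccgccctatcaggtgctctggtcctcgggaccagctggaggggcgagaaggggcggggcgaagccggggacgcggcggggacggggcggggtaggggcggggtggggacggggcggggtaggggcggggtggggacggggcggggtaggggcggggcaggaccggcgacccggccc
ATG4C: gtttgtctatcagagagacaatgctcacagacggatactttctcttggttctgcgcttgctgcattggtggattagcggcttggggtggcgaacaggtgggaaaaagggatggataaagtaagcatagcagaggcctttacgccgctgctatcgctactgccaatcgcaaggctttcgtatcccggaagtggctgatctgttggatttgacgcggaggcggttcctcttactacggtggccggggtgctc
TAX1BP1: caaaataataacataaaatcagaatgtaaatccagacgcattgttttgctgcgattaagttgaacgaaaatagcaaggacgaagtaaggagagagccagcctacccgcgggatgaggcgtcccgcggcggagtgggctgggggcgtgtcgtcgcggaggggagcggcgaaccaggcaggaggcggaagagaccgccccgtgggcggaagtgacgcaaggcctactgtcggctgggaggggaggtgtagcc
SQSTM1: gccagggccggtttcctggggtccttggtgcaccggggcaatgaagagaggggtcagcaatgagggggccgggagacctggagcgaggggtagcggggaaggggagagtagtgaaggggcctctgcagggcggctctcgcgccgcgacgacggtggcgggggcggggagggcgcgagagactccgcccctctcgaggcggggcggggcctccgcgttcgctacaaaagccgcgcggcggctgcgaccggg
MAP1LC3B: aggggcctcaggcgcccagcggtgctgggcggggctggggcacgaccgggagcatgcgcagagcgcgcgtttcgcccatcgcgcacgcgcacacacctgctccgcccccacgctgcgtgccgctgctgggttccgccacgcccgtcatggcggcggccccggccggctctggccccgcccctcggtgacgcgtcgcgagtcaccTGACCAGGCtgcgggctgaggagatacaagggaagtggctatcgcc
The table held 37 of the 42 members. On both strands, 4 motifs were searched. CACGTG, the core of the element read by TFEB, a transcription factor of lysosome and autophagy genes, was present in 3 members (ATG14, ATG3 and ULK3), which is 8.11% of members against 7.73% of all 27305 genes of the table. TGACNNNGC, the core of the antioxidant response element, was present in 5 members (ATG101, ATG9B, CALCOCO2, MAP1LC3B and ULK3), 13.5% against 13.2%. TGATGNAA, read by ATF4, was present in MAP1LC3C alone (2.70% against 3.89%), and TGANTCA, the AP-1 site, in ATG9B alone (2.70% against 8.06%). Of the 6 windows shown only that of MAP1LC3B held a match, TGACCAGGC. A run of bases that matches 2 motifs counts for each, and an absent match says only that these letters are not in this window.

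**Figure D1:**
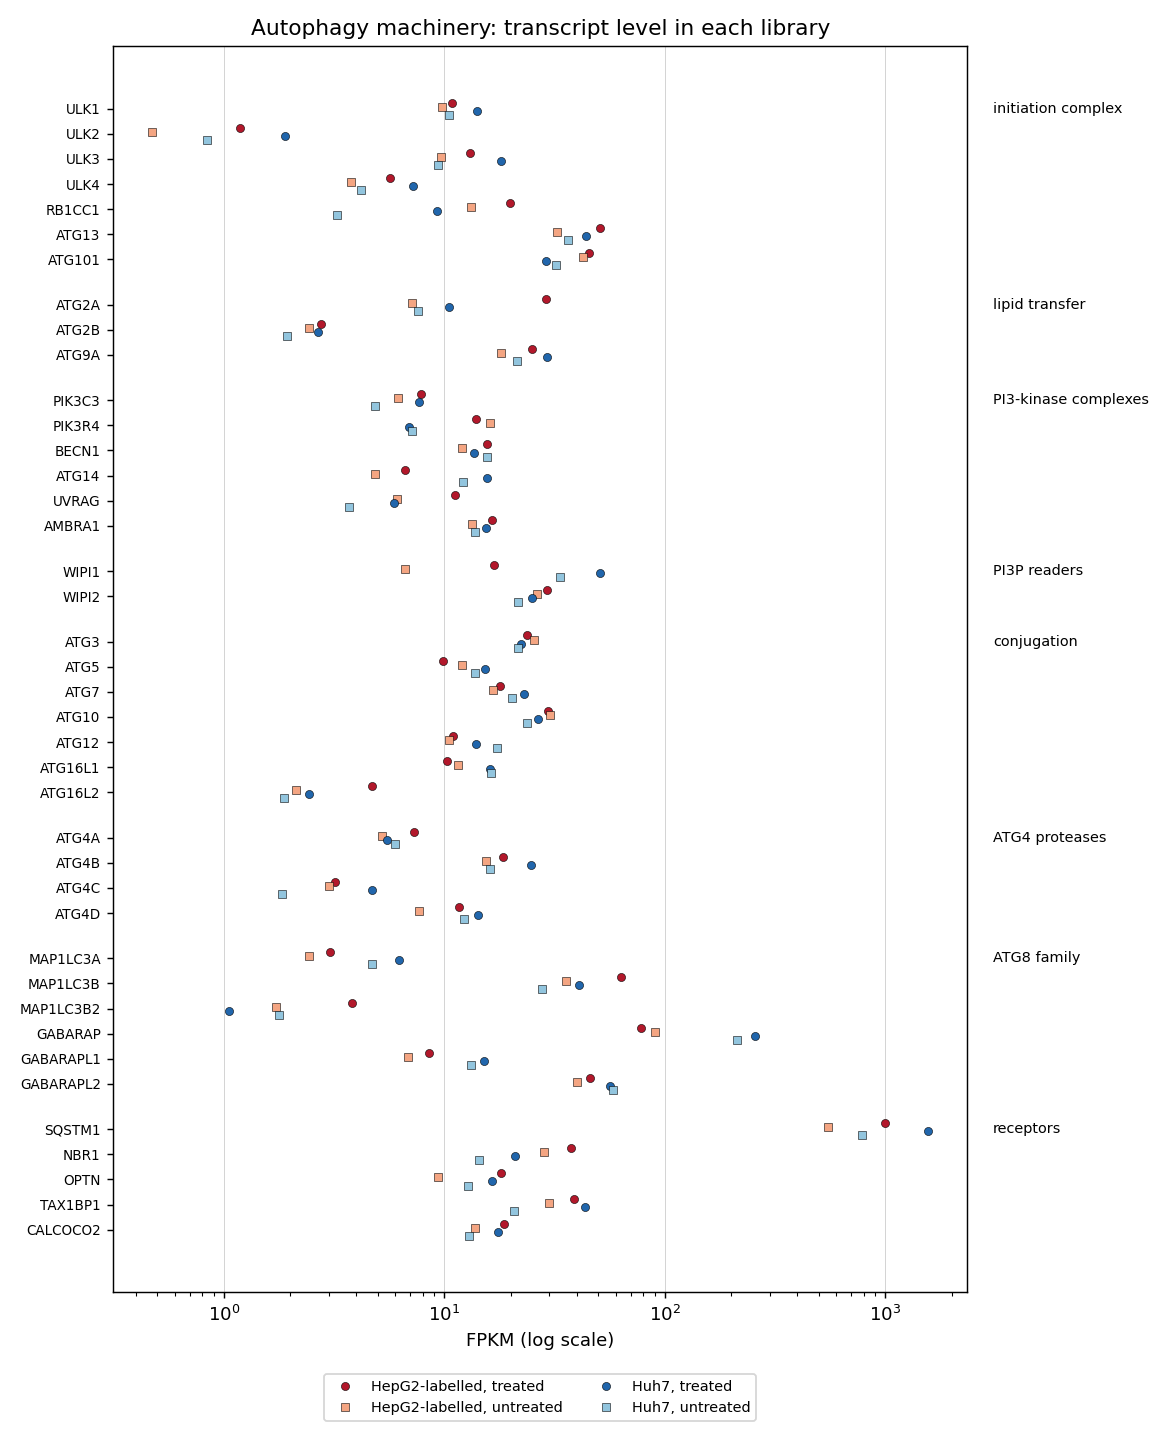
FPKM (log axis) of the 40 members that reached 1 FPKM, 1 row per gene in order of role, with circles for treated and squares for untreated libraries. SQSTM1 stands apart at 552 to 1571 FPKM, and of the others only GABARAP passes 100 FPKM.

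The initiation complex joins the kinases ULK1 and ULK2 to the scaffold RB1CC1 (also FIP200) and the adaptors ATG13 and ATG101, and ULK3 and ULK4 are relatives of these kinases. All 7 genes had a ratio above 1 in HepG2-labelled cells and 6 of 7 in Huh7, against 56.9% and 58.8% of all genes. The medians of the 7 were 0.48 and 0.65. RB1CC1 stood at 19.9 FPKM in treated and 13.2 FPKM in untreated HepG2-labelled cells, and at 9.31 FPKM in treated and 3.26 FPKM in untreated Huh7. Its log2 ratio was 0.56 and 1.27, the largest of any member in Huh7, and both Huh7 libraries lay below both HepG2-labelled ones. The plain FPKM ratio in Huh7 was 2.85-fold, with an exact 95% counting interval of 2.09 to 4.03 that covers counting error only. ULK3 stood at 13.1 FPKM treated and 9.63 FPKM untreated under the HepG2 label, and at 18.2 FPKM treated and 9.41 FPKM untreated in Huh7 (log2 ratios 0.41 and 0.88). The untreated libraries were thus nearly level and the treated ones apart. ULK2 was low, at 1.19 FPKM treated and 0.474 FPKM untreated in HepG2-labelled cells and 1.90 FPKM treated and 0.843 FPKM untreated in Huh7, with log2 ratios of 0.57 and 0.65. The plain FPKM ratio of ULK2 was 2.50-fold (counting interval 1.75 to 3.56) and 2.25-fold (1.73 to 2.95). ULK4 stood at 5.68 FPKM treated and 3.79 FPKM untreated under the HepG2 label and 7.21 FPKM treated and 4.20 FPKM untreated in Huh7 (0.48 and 0.66). ATG13 passed 1.5-fold in HepG2-labelled cells, at 50.9 FPKM treated and 32.5 FPKM untreated, with 43.8 FPKM treated and 36.4 FPKM untreated in Huh7 (0.63 and 0.26). ULK1 itself, the kinase that mTORC1 holds in check, had log2 ratios of 0.14 and 0.40 at levels of 9.73 to 14.1 FPKM. ATG101 had ratios of 0.09 and -0.15, and the first turned to -0.03 with size factors.

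Lipid supply to the growing membrane rests on ATG9A, a scramblase carried in vesicles, and on ATG2A and ATG2B, rod-shaped proteins that transfer lipid from the endoplasmic reticulum. ATG2A (chromosome 11, 64894546 to 64917211) stood at 28.9 FPKM in treated and 7.11 FPKM in untreated HepG2-labelled cells, and at 10.5 FPKM in treated and 7.64 FPKM in untreated Huh7. The treated HepG2-labelled library alone stood high. The log2 ratio of 1.88 there was the largest of all members in either line, and it was 0.41 in Huh7. The plain FPKM ratio under the HepG2 label was 4.07-fold (counting interval 3.80 to 4.36), against 1.37-fold in Huh7 (1.27 to 1.49). Its paralog ATG2B lay at 1.93 to 2.77 FPKM, with log2 ratios of 0.14 and 0.33. ATG9A had 0.44 in both lines, at 25.0 FPKM treated and 18.2 FPKM untreated in HepG2-labelled cells and 29.2 FPKM treated and 21.3 FPKM untreated in Huh7. Of its exonic bases 38.8% overlap another annotated gene, so its reads are uncertain.

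The lipid kinase PIK3C3 (VPS34) works with PIK3R4 and BECN1, and ATG14 or UVRAG direct it to autophagosomes or to later membranes. Ratios in this group were small, with medians of 0.33 in HepG2-labelled cells and 0.25 in Huh7. Of all genes 19.2% were at least 1.5-fold higher under the HepG2 label and 15.4% in Huh7. In this group 1 of 6 genes passed 1.5-fold under the HepG2 label and none in Huh7. That gene was UVRAG, at 11.2 FPKM in treated and 6.11 FPKM in untreated HepG2-labelled cells, and at 5.89 FPKM in treated and 3.69 FPKM in untreated Huh7 (log2 ratios 0.78 and 0.56). BECN1, the regulatory subunit that BCL2 proteins bind, stood at 15.7 FPKM treated and 12.0 FPKM untreated under the HepG2 label, and at 13.7 FPKM treated and 15.6 FPKM untreated in Huh7, so its sign differed between lines (0.36 and -0.18). PIK3R4 was slightly below its untreated level in both lines (-0.20 and -0.04). PIK3C3, ATG14 and AMBRA1, an activator of BECN1 and ULK1, had log2 ratios of 0.16 to 0.57.

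The PI3P readers were represented by WIPI1 and WIPI2, which recruit the conjugation machinery to the marked membrane. WIPI1 stood at 16.8 FPKM in treated and 6.67 FPKM in untreated HepG2-labelled cells, and at 51.0 FPKM in treated and 33.4 FPKM in untreated Huh7. Both Huh7 libraries were above both HepG2-labelled ones, and within each line the treated one was the higher. The log2 ratios were 1.22 and 0.60. Of the exonic bases of WIPI1 24.3% overlap ARSG, a sulfatase gene on the opposite strand, and the labels do not say that strand was kept. Overlaps with any annotated gene cover 28.1% of them, so the reads of WIPI1 are uncertain. ARSG stood at 7.19 FPKM in treated and 7.59 FPKM in untreated HepG2-labelled cells, and at 6.25 FPKM in treated and 2.03 FPKM in untreated Huh7. WIPI2 hardly differed, with 0.14 and 0.20 at levels of 21.6 to 29.2 FPKM.

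Conjugation was the flattest group. ATG7 and the E2-like enzymes ATG3 and ATG10 run the reactions that join ATG12 to ATG5 and the ATG8 proteins to lipid, and ATG16L1 places them on the membrane. These 6 genes lay between 9.89 and 30.1 FPKM in all libraries, and their log2 ratios ran between -0.30 and 0.17 in either line. ATG12 had the lowest of these, -0.30 in Huh7, at 13.9 FPKM treated and 17.4 FPKM untreated, with 0.05 in HepG2-labelled cells (-0.06 with size factors). ATG16L2, a paralog of ATG16L1, differed from them in HepG2-labelled cells, at 4.72 FPKM treated and 2.12 FPKM untreated (0.87), and stood at 2.45 FPKM treated and 1.87 FPKM untreated in Huh7 (0.27). The group's median was -0.02 in HepG2-labelled cells and 0.13 in Huh7, the lowest of the 8 role groups in both lines.

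The ATG4 proteases trim ATG8 proteins before conjugation and free them afterwards. Their sum was 40.6 FPKM in treated and 31.4 FPKM in untreated HepG2-labelled cells, and 49.2 FPKM in treated and 36.2 FPKM in untreated Huh7. ATG4C lay at 3.20 FPKM treated and 3.01 FPKM untreated under the HepG2 label, and at 4.70 FPKM treated and 1.84 FPKM untreated in Huh7 (log2 ratios 0.07 and 1.00). Its call in Huh7 sat on the 2-fold mark, at 2.01-fold with the added 1 FPKM, and the plain ratio of 2.55-fold had a counting interval of 1.69 to 4.07. ATG4B, the most active protease of the family, stood at 18.4 FPKM treated and 15.5 FPKM untreated under the HepG2 label and 24.7 FPKM treated and 16.1 FPKM untreated in Huh7 (0.24 and 0.58). ATG4A had ratios of 0.42 and -0.09, and ATG4D of 0.55 and 0.21.

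**Figure D2:**
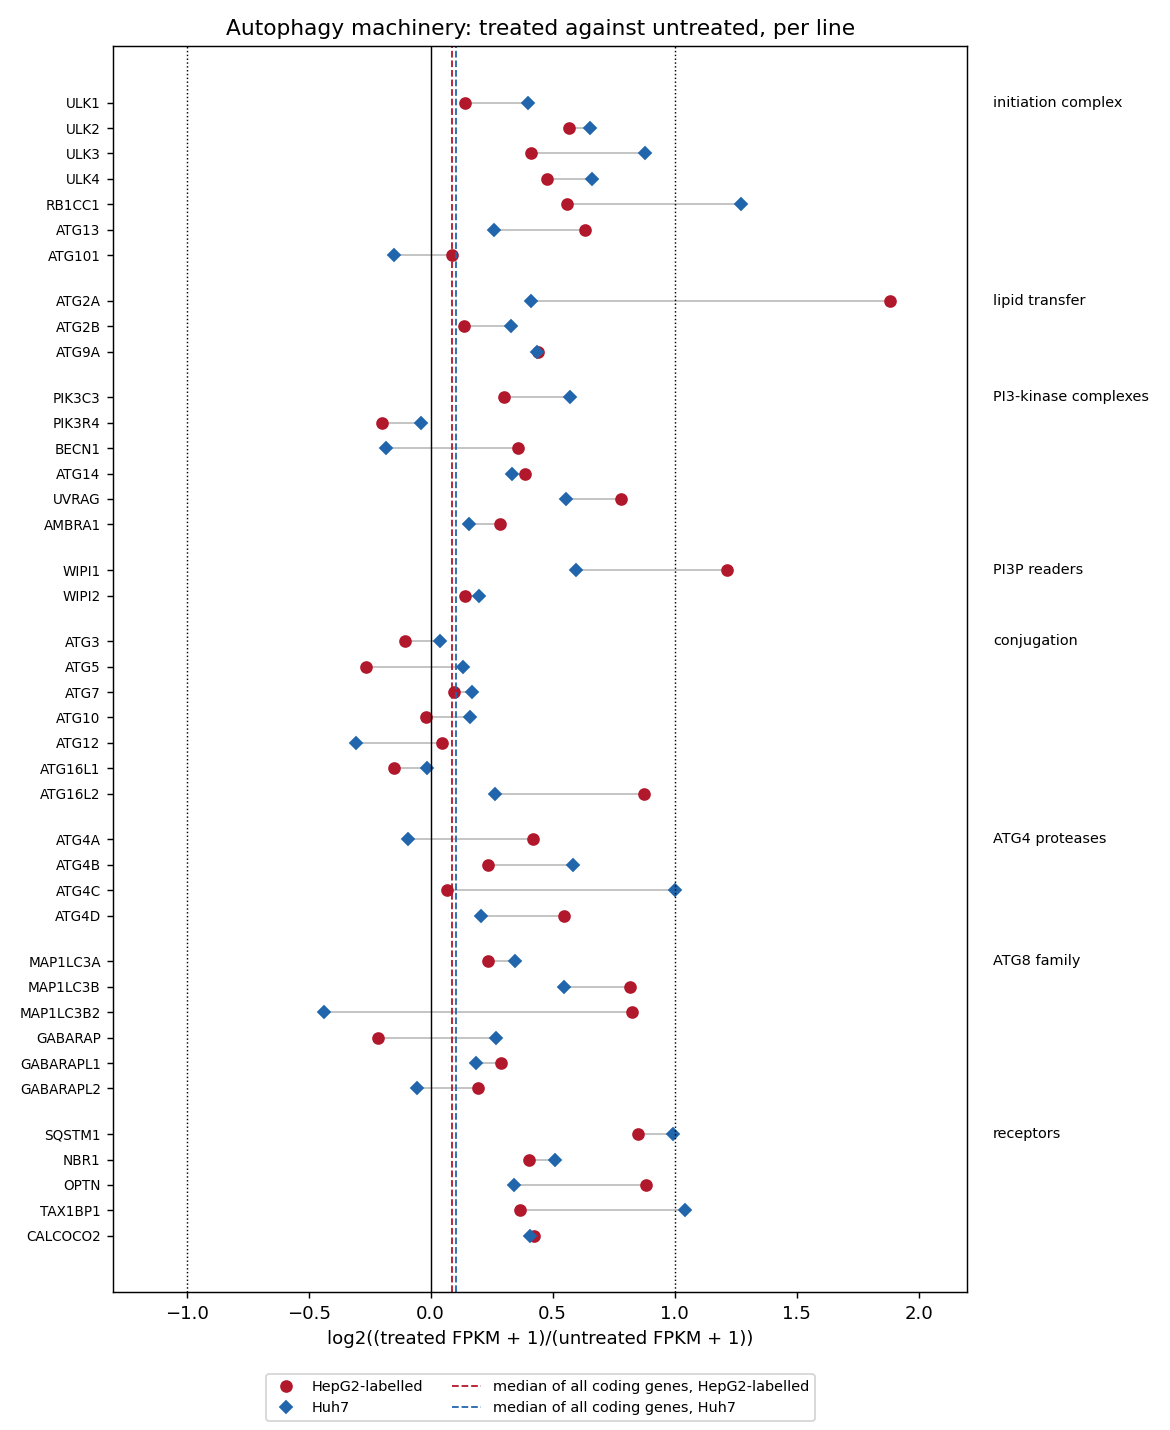
Log2 ratio of treated to untreated FPKM + 1 per member, with circles for HepG2-labelled and diamonds for Huh7 cells, dotted lines at 2-fold and dashed lines at the median of all coding genes (0.09 and 0.10). The conjugation genes gather near 0, and ATG2A at 1.88 in HepG2-labelled cells is the point farthest from it.

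The ATG8 family splits into LC3 and GABARAP genes. MAP1LC3B, whose protein is the usual marker of autophagosomes, stood at 63.4 FPKM in treated and 35.5 FPKM in untreated HepG2-labelled cells, and at 40.9 FPKM in treated and 27.7 FPKM in untreated Huh7. Both treated libraries were above both untreated ones. The log2 ratios were 0.82 and 0.55, with plain ratios of 1.78-fold (counting interval 1.67 to 1.90) and 1.48-fold (1.37 to 1.59). GABARAP stood below its untreated level in HepG2-labelled cells, at 78.1 FPKM treated and 90.8 FPKM untreated (-0.21), and above it in Huh7, at 255 FPKM treated and 212 FPKM untreated (0.27). It is uncertain, since 55.7% of its exonic bases overlap other annotated genes. GABARAPL2 stood at 46.1 FPKM treated and 40.1 FPKM untreated under the HepG2 label and 56.3 FPKM treated and 58.6 FPKM untreated in Huh7 (0.20 and -0.06). GABARAPL1 stood at 8.56 FPKM treated and 6.83 FPKM untreated and, in Huh7, 15.1 FPKM treated and 13.2 FPKM untreated (0.29 and 0.19). MAP1LC3A stood at 3.04 FPKM treated and 2.43 FPKM untreated under the HepG2 label and 6.27 FPKM treated and 4.72 FPKM untreated in Huh7 (0.24 and 0.35). MAP1LC3B2 was 3.83 FPKM treated and 1.72 FPKM untreated under the HepG2 label, and 1.06 FPKM treated and 1.79 FPKM untreated in Huh7 (0.83 and -0.44). It shares 15.1% of its 50-base words with other genes, most of all with MAP1LC3B, so its reads may be split with that gene.

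The mix of the family therefore differed by line and by treatment. LC3 genes summed to 70.2 FPKM in treated and 39.7 FPKM in untreated HepG2-labelled cells, while GABARAP genes summed to 133 FPKM treated and 138 FPKM untreated. The GABARAP genes made up 65.4% of the family in treated and 77.6% in untreated HepG2-labelled cells, and 87.1% in treated and 89.3% in untreated Huh7. MAP1LC3B alone made up 31.2% of it in treated and 20.03% in untreated HepG2-labelled cells, and 10.9% in treated and 8.70% in untreated Huh7. With 1 library per group none of these shares has a replicate error.

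Cargo receptors bind ubiquitin-tagged proteins or organelles at one end and ATG8 proteins at the other. All 5 were above their untreated level in both lines, as were 38.5% of the 10758 genes tested in both. Their medians were 0.42 in HepG2-labelled cells and 0.51 in Huh7, where all genes had 0.09 and 0.10. SQSTM1 (chromosome 5, 179797600 to 179838078) was by far the most abundant member, at 996 FPKM in treated and 552 FPKM in untreated HepG2-labelled cells, and at 1571 FPKM in treated and 788 FPKM in untreated Huh7. Both treated libraries lay above both untreated ones. Its rank among coding genes was 25 in treated and 78 in untreated HepG2-labelled cells, and 17 in treated and 49 in untreated Huh7. The log2 ratios were 0.85 and 0.99, just under 2-fold, with plain ratios of 1.80-fold (counting interval 1.76 to 1.85) and 1.99-fold (1.957 to 2.03). MRNIP, a gene of the DNA damage response on the opposite strand, covers 20.7% of the exonic bases of SQSTM1. It stood at 121 FPKM in treated and 44.8 FPKM in untreated HepG2-labelled cells, and at 148 FPKM in treated and 63.6 FPKM in untreated Huh7, so its treated values were likewise the higher ones, at a far lower level. The part of MRNIP in the SQSTM1 ratio was not tested. Overlaps with any annotated gene cover 22% of the exonic bases of SQSTM1, so its reads are uncertain.

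TAX1BP1, a receptor that also joins NBR1 in clearing protein aggregates, stood at 38.7 FPKM treated and 29.7 FPKM untreated under the HepG2 label, and at 43.6 FPKM treated and 20.7 FPKM untreated in Huh7 (log2 ratios 0.37 and 1.04). The counting interval in Huh7 was 1.98 to 2.25 around a plain ratio of 2.11-fold, and with size factors the gene fell short of 2-fold there. OPTN, a receptor of mitophagy, stood at 18.1 FPKM treated and 9.35 FPKM untreated under the HepG2 label, and at 16.4 FPKM treated and 12.8 FPKM untreated in Huh7 (0.88 and 0.34). NBR1 stood at 37.7 FPKM treated and 28.2 FPKM untreated under that label and 20.9 FPKM treated and 14.4 FPKM untreated in Huh7 (0.40 and 0.51). CALCOCO2, also NDP52, stood at 18.7 FPKM treated and 13.7 FPKM untreated and, in Huh7, at 17.5 FPKM treated and 12.9 FPKM untreated (0.42 and 0.41). SQSTM1 supplied 89.8% of the summed receptor transcript in treated and 87.2% in untreated HepG2-labelled cells, and 94.1% in treated and 92.8% in untreated Huh7. Per unit of summed ATG8 transcript there was 4.91 times as much SQSTM1 in treated and 3.11 times in untreated HepG2-labelled cells, and 4.19 times in treated and 2.48 times in untreated Huh7.

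**Figure D3:**
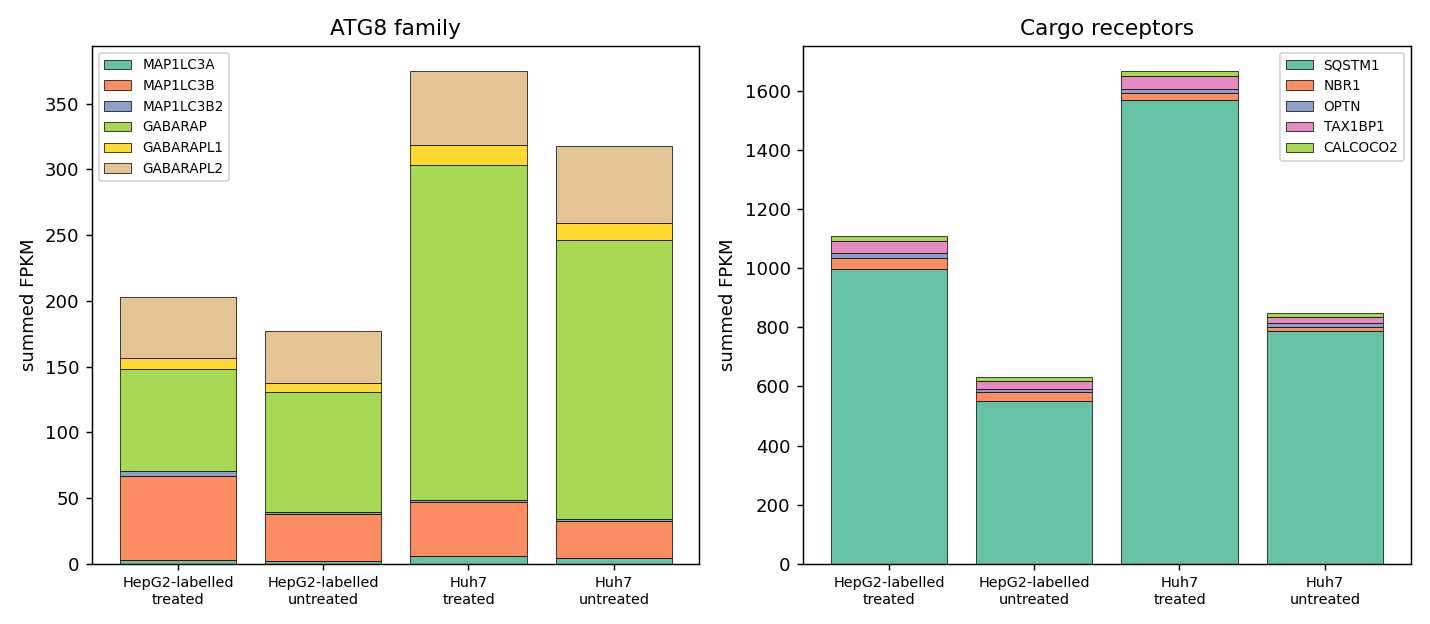
Stacked FPKM of the ATG8 family (left panel) and of the 5 cargo receptors (right panel) in each library, with each line's treated bar left of its untreated bar. The LC3 part of the ATG8 bar is 70.2 FPKM in treated against 39.7 FPKM in untreated HepG2-labelled cells, and SQSTM1 fills most of every receptor bar.

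Set side by side, 28 of the 40 members were above their untreated level in both lines, which is 70% against 38.5% of 10758 genes tested in both. With size factors these were 26 members (65%) and 28.0% of all genes. On the deposited scale 2 members were below their untreated level in both, PIK3R4 and ATG16L1, as were 2510 of the 10758 genes. Opposite signs were found for 10 of 40 members and 4107 of 10758 genes. Both counts depend on the scale, since size factors turned the sign of several near-level ratios. At 1.5-fold in both lines there were 2 members, SQSTM1 and WIPI1, which is 5% against 4.68% of all genes. The exons of SQSTM1 and WIPI1 overlap other genes, at 22% and 28.1% of exonic bases. None was 2-fold higher in both with the added 1 FPKM. With a pseudocount of 0.1 FPKM the low gene ULK2 passed 2-fold in both, at log2 ratios of 1.16 under the HepG2 label and 1.08 in Huh7. Across the 40 members the ratios of the lines correlated at r = 0.28 (rho = 0.44), beside r = 0.26 (rho = 0.29) across all genes. The genes are not independent of each other, and those with the largest ratio differed between lines: ATG2A and WIPI1 under the HepG2 label, RB1CC1 and TAX1BP1 in Huh7.

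**Figure D4:**
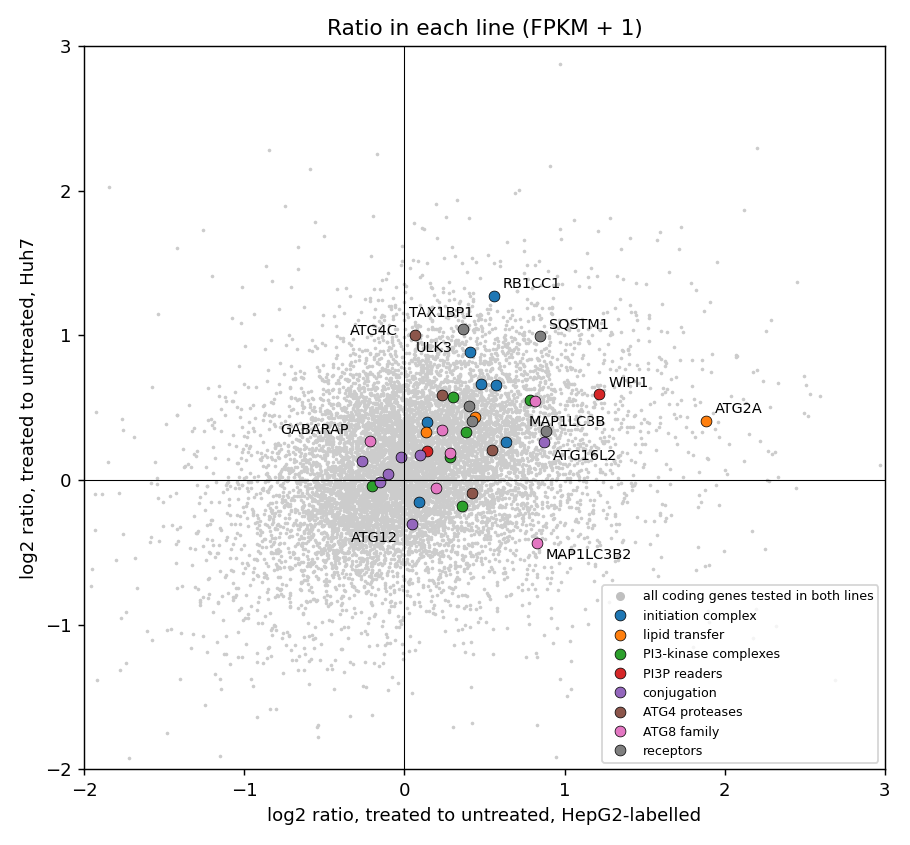
Log2 ratio in HepG2-labelled cells (horizontal) against Huh7 (vertical), with members coloured by role over all coding genes tested in both lines in grey. The axes run from -2 to 3 and leave out 43 of 10758 genes, and 28 of 40 members lie to the upper right of both zero lines.

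The only test across libraries took the lines as repeats, with limma, cell line as a block and 1 residual degree of freedom. It asks whether both lines moved alike. Each gene's variance was drawn toward that of other genes, with 6.56 prior degrees of freedom, so a p rests mostly on that shared variance. No member and none of the 13030 genes passed an adjusted p of 0.05. At an unadjusted p under 0.05 there were 9 members, all higher in treated cells, and 1534 genes (11.8%). With size factors these were 5 members and 1455 genes, so the members' count depends on the scale. The members were SQSTM1, WIPI1, RB1CC1, ATG2A, MAP1LC3B, TAX1BP1, UVRAG, ULK3 and OPTN. SQSTM1 came first, with a fitted log2 ratio of 0.92 (SE 0.17), higher in treated cells of 2 of 2 lines, an unadjusted limma p of 0.00064 and a Benjamini-Hochberg adjusted p of 0.212. With cell line kept in the model, its adjusted p ranged from 0.153 to 0.608 over the other settings tried. Among members that do not overlap another gene RB1CC1 came first, with a Benjamini-Hochberg adjusted limma p of 0.303.

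Untreated Huh7 and untreated HepG2-labelled cells were also set against each other over the 39 members tested there. These untreated libraries are the same ones that the treatment ratios rest on. Past 2-fold, 3 members stood higher in Huh7 and 2 lower, where 17.5% of 12446 genes were higher and 17.2% lower. In all 23 of 39 had a ratio above 1, against 47.5% of all genes. With size factors the split was 3 higher and 1 lower. Without members that overlap other genes it was 1 higher and 2 lower. That setting leaves out WIPI1 and GABARAP, whose reads are uncertain, with 28.1% and 55.7% of exonic bases overlapping. WIPI1 was the farthest, at 33.4 FPKM in Huh7 and 6.67 FPKM in HepG2-labelled cells (log2 ratio 2.17). GABARAP followed at 212 FPKM in Huh7 and 90.8 FPKM in HepG2-labelled cells (1.22), then ATG14 at 12.2 FPKM in Huh7 and 4.86 FPKM in HepG2-labelled cells (1.17). Lower in Huh7 were RB1CC1, at 3.26 FPKM against 13.2 FPKM in HepG2-labelled cells (-1.74), and PIK3R4, at 7.13 FPKM against 16.1 FPKM (-1.07). At 1.5-fold 7 members were higher and 4 lower in Huh7, where 26.2% of all genes were higher and 29.2% lower. The shares of members called were below the background in this comparison.

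**Figure D5:**
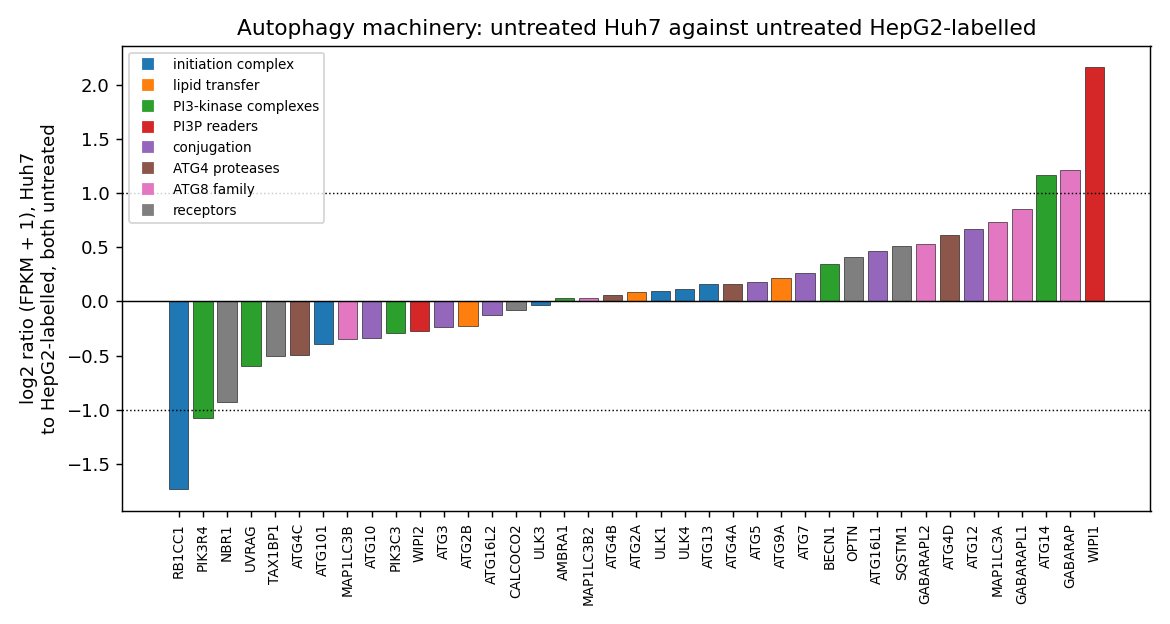
Log2 ratio of untreated Huh7 to untreated HepG2-labelled cells (FPKM + 1) for 39 members, ordered by value and coloured by role, with dotted lines at 2-fold. The bars run from -1.74 (RB1CC1) to 2.17 (WIPI1), and 34 of 39 stay within 2-fold.

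Genes that govern or complete autophagy outside these families were read from 5 lists. Upstream, among the mTORC1, AMPK and nutrient sensor genes, 3 of 28 tested were at least 2-fold higher in treated HepG2-labelled cells and 3 of 31 in treated Huh7, with none lower, where 6.7% and 3.88% of all genes were higher. SESN2, a leucine sensor that restrains mTORC1, stood at 28.6 FPKM in treated and 4.43 FPKM in untreated HepG2-labelled cells, and at 8.57 FPKM in treated and 8.95 FPKM in untreated Huh7. DDIT4, another mTORC1 inhibitor, was higher in both lines, at 114 FPKM treated and 44.8 FPKM untreated under the HepG2 label and 12.3 FPKM treated and 3.996 FPKM untreated in Huh7. It is uncertain because 41.2% of its exonic bases overlap an antisense gene. LAMTOR5, of the complex that anchors mTORC1 on lysosomes, was higher under the HepG2 label (34.7 FPKM treated and 13.1 FPKM untreated) and stood at 13.5 FPKM treated and 20.4 FPKM untreated in Huh7. In Huh7 the other two were RRAGD, a Rag GTPase, at 39.6 FPKM treated and 10.6 FPKM untreated and listed at 0 under the HepG2 label, and FNIP2, a folliculin partner, at 10.8 FPKM treated and 3.94 FPKM untreated.

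Of the transcription factors of autophagy genes 3 of 11 were higher and 1 lower in HepG2-labelled cells, and none of 11 passed 2-fold in Huh7. The shares over all genes were 6.7% higher and 2.43% lower under the HepG2 label, and 3.88% and 2.19% in Huh7. DDIT3 (CHOP) stood at 34.2 FPKM treated and 6.30 FPKM untreated under the HepG2 label, though 39.6% of its exonic bases overlap other annotated genes, MARS among them. ATF4, the effector of the integrated stress response, stood at 229 FPKM treated and 85.6 FPKM untreated under the HepG2 label, and at 202 FPKM treated and 132 FPKM untreated in Huh7. ZKSCAN3, a repressor of autophagy genes, was 2.78 FPKM treated and 0.758 FPKM untreated under the HepG2 label, and MITF, a TFEB relative, was lower there, at 5.37 FPKM treated and 16.0 FPKM untreated. TFEB itself lay at 2.48 FPKM treated and 2.51 FPKM untreated under the HepG2 label and at 0.706 FPKM treated and 1.10 FPKM untreated in Huh7. TFE3, its more abundant relative, stood at 27.0 FPKM treated and 16.9 FPKM untreated, and in Huh7 at 34.1 FPKM treated and 28.6 FPKM untreated.

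Nucleation partners had 4 of 13 higher in HepG2-labelled cells and none of 13 past 2-fold in Huh7, where 6.7% and 3.88% of all genes were higher. WDR45, the WIPI family member that pairs with ATG2 proteins, stood at 80.9 FPKM treated and 23.8 FPKM untreated under the HepG2 label, and at 66.7 FPKM treated and 37.0 FPKM untreated in Huh7. The others were TMEM41B, a scramblase of the endoplasmic reticulum, EPG5, a tether of autophagosomes, and TP53INP2, which binds ATG8 proteins, at log2 ratios of 1.09, 1.02 and 1.36. In Huh7 their ratios were 0.06 (-0.08 with size factors), 0.69 and -0.43. Among other cargo receptors and mitophagy genes CALCOCO1, a receptor for endoplasmic reticulum, was higher in both lines, at 11.4 FPKM treated and 3.81 FPKM untreated under the HepG2 label and 12.8 FPKM treated and 4.27 FPKM untreated in Huh7. The list also holds mitophagy kinases such as PINK1. Of its genes 2 of 18 were higher under the HepG2 label, the other being RETREG1, and 3 of 17 in Huh7, against 6.7% and 3.88% of all genes. RTN3, which clears tubules of the endoplasmic reticulum, stood at 54.8 FPKM treated and 14.7 FPKM untreated in Huh7 but 61.4 FPKM treated and 70.5 FPKM untreated under the HepG2 label. CCPG1, a receptor of the same organelle, was 10.1 FPKM treated and 3.43 FPKM untreated in Huh7, with 39.8% of its exonic bases shared with other annotated genes, chiefly a readthrough gene. NCOA4, the receptor for ferritin, was below its untreated level in both lines, at 73.2 FPKM treated and 89.1 FPKM untreated under the HepG2 label and 73.4 FPKM treated and 85.0 FPKM untreated in Huh7. For fusion with lysosomes 1 of 15 genes was higher under the HepG2 label, the adaptor PLEKHM1 at 13.4 FPKM treated and 6.20 FPKM untreated, and 1 lower, the SNARE VAMP8 at 6.75 FPKM treated and 25.6 FPKM untreated, and none passed 2-fold in Huh7. All genes gave 6.7% higher and 2.43% lower under the HepG2 label, and 3.88% and 2.19% in Huh7.

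The authors' deposited table of Gene Ontology terms held 19 autophagy terms among 12517 for the HepG2 label, with a lowest corrected p of 0.739 in that table. For Huh7 the authors' deposited table held 14 such terms among 11546, all with a corrected p of 1. Gene lists in the authors' deposited table named 4 of 42 members for the HepG2 label (ATG2A, ATG9B, ATG16L2 and WIPI1). For Huh7 they named 1 of 42 (RB1CC1). The lists held 3213 genes for the HepG2 label and 2438 for Huh7, of 22135 background genes. The share of members named was below that of all background genes in both lines. No source used here says how the authors picked those genes.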

How the data were processed

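Per the labels' protocols, Trizol was used to extract RNA and an Illumina TruSeq kit to build libraries. No source used here says whether strand was kept. The authors deposited FPKM per coding gene and per long noncoding transcript, 1 column per library, per the file headers. Tools named without a role in the submitters' processing notes are StringTie 1.3.1 and Cuffdiff 2.1.1, the aligners HISAT2 and Bowtie2 2.2.8, and GATK, SAMtools 0.1.18 and Picard 1.96. The authors also deposited enrichment tables holding a p-value and a corrected one for every term, per the file headers. The genome build is not stated in any source used here. Among the coding table's genes, 19664 had an identifier in GENCODE 29, and 99.93% of their positions overlapped that gene, so coordinates are GRCh38 by this match.

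No count model was used, since FPKM values are not counts. Each log2 ratio adds 1 FPKM, genes under 1 FPKM in both libraries compared were left out, and calls are at 2-fold, with no test within a line. Depth was inferred from the step between low FPKM values. Counting intervals (exact conditional binomial, 95%) use fragments computed from that depth and the median length of annotated coding transcripts, and cover counting error only. Their width depends on that length, which was 0.631 kilobases for RB1CC1 and 0.665 kilobases for ATG4C. The limma fit (3.58.1, R 4.3.3) used log2(FPKM + 1) of the 4 libraries with a mean-variance trend and cell line as a block, and Benjamini-Hochberg adjustment over 13030 genes. The labels give the cell line that pairs each treated library with an untreated one. Nothing in the labels says that libraries came from repeat cultures, so any p measures only the spread between these libraries, shared over genes by limma. Ratio and limma scripts were tested on simulated data. Members with over 20% of exonic bases in other annotated genes are called uncertain, which were ATG9A, WIPI1, GABARAP and SQSTM1.

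The rule for naming gave all 4 values for members at least 1.5-fold higher or lower in either line, for the ATG8 family and for the receptors, and named up to 6 pathway genes past 2-fold per list. TFEB, TFE3 and NCOA4 fall outside it and were chosen after their values were seen. Members and lists were chosen with earlier results of these data known. Alternatives were a pseudocount of 0.1 FPKM, no filter, a filter at 5 FPKM, rescaling to equal sums, size factors, leaving out overlapping members, and, for limma, no block and no trend. Promoter sequences are from RefSeq (GRCh38.p14), where 5 of the 42 members were not matched (ATG4D, UVRAG, ULK4, RB1CC1 and MAP1LC3A).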

Additional observations from a re-analysis of the deposited data

Results flagged for a closer look

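For 2 members the treated value lay below the untreated one in HepG2-labelled cells and above it in Huh7, with both counting intervals on opposite sides of no difference. The share of all genes that meet this rule was not computed, so the 2 members have no background to be read against. Opposite signs of any size, in either direction, were found for 10 of 40 members and 4107 of 10758 genes. ATG5, the partner of ATG12, stood at 9.89 FPKM treated and 12.1 FPKM untreated under the HepG2 label, and at 15.3 FPKM treated and 13.9 FPKM untreated in Huh7. Its log2 ratios differed by -0.40 (HepG2-labelled minus Huh7), and with size factors the Huh7 ratio was -0.01. GABARAP differed by -0.48 between the lines, and its exons overlap other genes. With 1 library per group neither difference was tested.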

How the results depend on the processing

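Medians of the members kept their sign under every setting, at 0.25 to 0.41 in HepG2-labelled cells and 0.20 to 0.37 in Huh7. The number of members past 2-fold under the HepG2 label was 5 with a pseudocount of 0.1 FPKM, which adds the low genes ATG16L2, MAP1LC3B2 and ULK2, and 1 without members that overlap another gene, which leaves out WIPI1. In Huh7 it was 4 with that pseudocount, which adds ULK2. With size factors it was 1 in Huh7, where ATG4C and TAX1BP1 fall short and RB1CC1 stays. At 5 FPKM or with equal sums ATG4C fell short too. Between untreated lines it was 3 without overlapping members. No member passed limma's threshold under any setting, including the fit without the block for cell line, which called 0 genes and had 0 members and 112 genes at an unadjusted p under 0.05. The smallest member adjusted p was 1 there. With all genes above 5 FPKM, or with equal sums, 1 gene passed, which is not a member. Of 116 single-gene ratios, size factors shifted 35 by more than the counting interval reaches to that side of the plain ratio. The pseudocount shifted 8 by more than that, and equal sums 2. A ratio with the added 1 FPKM can itself lie outside the interval, which belongs to the plain ratio. Signs turned with size factors for the near-level ratios of ATG101, ATG12, ATG4C and ATG7 under the HepG2 label and of ATG3, ATG5 and the pathway gene TMEM41B in Huh7, and with equal sums for ATG10 under the HepG2 label. Leaving out a library was not possible, because each group is 1 library. Low members such as ATG4C and MAP1LC3B2 have wide counting intervals, whose width depends on depth and on the transcript length used.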

Other observations

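The table of long noncoding RNA held 14 transcripts of 9 gene names that carry a member's symbol, and 3 of them reached 1 FPKM, the highest at 2.40 FPKM. A transcript the authors named BECN1-OT1 stood at 1.67 FPKM in treated and 2.40 FPKM in untreated HepG2-labelled cells, and at 1.34 FPKM in treated and 1.76 FPKM in untreated Huh7. ATG4A-OT1 stood at 1.21 FPKM treated and 1.58 FPKM untreated under the HepG2 label, and at 0.744 FPKM treated and 0.990 FPKM untreated in Huh7. UVRAG-DT-203, from a gene that overlaps UVRAG, stood at 1.38 FPKM treated and 0.799 FPKM untreated under the HepG2 label, and at 0.389 FPKM treated and 0.868 FPKM untreated in Huh7.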
